A study of Mus musculus with 25 samples.

Results

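The cytosolic sensors of RNA and DNA were described in hematopoietic stem cells with and without ZNF143, a zinc finger transcription factor that binds promoters. The members were the 10 genes of a list of sensors, adaptors and restraining enzymes, *Ddx58*, *Ifih1*, *Dhx58*, *Mavs*, *Zbp1*, *Trex1*, *Irf3*, *Aim2*, *Tmem173* and *Adar*. By symbol, 9 of the 10 were matched among 23116 listed genes, all 9 passed the filter on low values, and *Trex1* was not analysed. RNA-seq had been performed on 6 libraries of HSLAM cells, the LSK+ CD150+ CD48- cells of the bone marrow, from male C57BL/6 mice of 8 to 12 weeks. The 3 control libraries came from Znf143 f/f mice without Cre (Znf143 f/f), and the 3 others from Znf143 f/f mice that carried Rosa26ERT2-Cre (Znf143 -/-). All mice received the middle dosage of tamoxifen by intraperitoneal injection over 10 days. Only the Znf143 -/- mice carried Cre, so that the effects of Cre and of the deletion cannot be told apart. The Rosa26 locus is active in most tissues, so that the deletion was not limited to the stem cells. The labels of the samples name the deleted genotype a CTCF knockout, whereas the study describes it as Znf143 -/-.

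RNA in the cytosol that looks viral is bound by the RIG-I-like receptors, RIG-I (*Ddx58*), MDA5 (*Ifih1*) and LGP2 (*Dhx58*), and RIG-I and MDA5 pass the signal to the mitochondrial adaptor MAVS. DNA in the cytosol is detected by cGAS, which signals through STING (*Tmem173*), and by AIM2, which assembles an inflammasome. Both routes lead to the kinase TBK1 and the transcription factor IRF3, which switches on type I interferon. ZBP1 binds nucleic acids in the Z conformation and can start cell death, while ADAR1 (*Adar*) edits double-stranded RNA and TREX1 degrades DNA, so that the cell's own nucleic acids are not taken for foreign ones. Several sensors are themselves induced by interferon, through promoter elements called ISRE.

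Of the 9 sensing genes tested, 2 rose in Znf143 -/- cells, 1 fell and 6 did not pass the test. *Zbp1* rose to 1.91 times and *Dhx58* to 1.63 times its mean level in Znf143 f/f cells, and *Irf3* fell to 0.737 times. *Ddx58* and *Ifih1*, the receptors that signal, stood at 1.05 and 1.11 times their control levels and did not pass the test. The 3 called genes set against 9 tested may be read beside the background, in which 1154 of all 19293 genes tested were called (5.98%), 3% of those tested higher and 2.99% lower. A gene was called where limma gave it an adjusted p under 0.05 over all genes. The median log2 fold change of the 9 genes was 0.21, that of all genes tested 0.0065.

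The promoters of *Ddx58* and *Ifih1* are shown first, because they hold the ISRE core. The windows were taken from RefSeq on GRCm38.p6 and reached from 250 bases before to 50 bases after the start of transcription. The ISRE core was written as TTCNNTTTC and searched on both strands. It stood in 8.56% of all 32851 windows of this length, a share per window. Among the members with a window, it stood in those of *Ddx58*, *Ifih1* and *Adar*, 3 of 7 genes. These 7 genes had 10 windows, so that the count per gene is not on the same scale as the share. *Dhx58*, *Zbp1* and *Tmem173* had no window. The sequences are given in the sense of the gene, with the match in capitals. For *Ddx58* the stretch lies at chr4:40239806-40240075 on the minus strand and ends with 20 transcribed bases, and its match starts 3 bases after the first transcribed base. For *Ifih1* it is the stretch before the start, chr2:62646256-62646505 on the minus strand, with a match that starts 112 bases before it.
Ddx58: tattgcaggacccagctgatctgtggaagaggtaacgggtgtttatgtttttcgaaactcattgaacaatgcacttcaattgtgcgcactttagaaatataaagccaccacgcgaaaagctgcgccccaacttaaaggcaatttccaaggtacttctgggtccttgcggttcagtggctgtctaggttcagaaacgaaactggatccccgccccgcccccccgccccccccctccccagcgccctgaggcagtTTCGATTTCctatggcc
Ifih1: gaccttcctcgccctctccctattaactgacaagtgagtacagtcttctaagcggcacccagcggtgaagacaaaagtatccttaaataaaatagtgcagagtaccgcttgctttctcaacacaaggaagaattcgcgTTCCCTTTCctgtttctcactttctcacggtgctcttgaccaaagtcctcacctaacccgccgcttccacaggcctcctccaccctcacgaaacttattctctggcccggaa

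A second match of the *Ifih1* window started 32 bases after the start of transcription. In *Adar*, both matches lay in 1 of 3 windows, that of the most downstream start, 249 bases before and 33 bases after it. That window also held the STAT binding core TTCNNNGAA, searched on both strands, which stood in 8.30% of all windows and in no other window of a member. The letters ACTACAA, a part of the long ZNF143 site, were searched on both strands. They stood in 3.24% of all windows and in none of the 10 windows of the 7 members. A match of letters is a description and says nothing on binding, and no match says only that these letters are not in the window.

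*Irf3* (ENSMUSG00000003184.15, chromosome 7 of GRCm38, 44997648 to 45002848, plus strand) has a divergent neighbour, *Bcl2l12*, on the minus strand. The RefSeq starts of the pair leave 68 bases between them, chr7:44997580-44997647, shown on the plus strand because any element in it lies at both promoters. The capitals mark CCCAGNATG, the other part of the long ZNF143 site, which was added to the search after the sequence had been seen. Searched on both strands, it stood in 2.04% of all windows, and *Irf3* was the only one of the 7 members to hold it, 14 bases before its start. The stretch is covered for the most part by an exon of an annotated retained-intron transcript of *Bcl2l12*.
Irf3 and Bcl2l12: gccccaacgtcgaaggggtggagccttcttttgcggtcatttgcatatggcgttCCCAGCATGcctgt

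Between 38643255 and 57895793 fragments lay on genes in the 6 libraries, and a member of the list had 403 to 5944 in each. The authors deposited FPKM, fragments per kilobase of gene length, scaled to the fragments of the library. In the third Znf143 -/- library, the divisor behind the FPKM was that of the second, although its fragments on genes were 1.20 times as many. All levels below are therefore FPKM after rescaling with size factors (median of ratios), and the text says where the deposited values change a call. As deposited, 833 genes were called (4.32% of those tested), 63.5% of them higher, against 50.1% after rescaling, and the median log2 fold change of all genes was 0.11. *Zfp143*, the mouse symbol of *Znf143*, had a rescaled FPKM of 3.09, 4.45 and 3.68 in the Znf143 f/f and of 0.156, 0.299 and 0.272 in the Znf143 -/- libraries, which goes with the genotype described by the study. Its log2 fold change was -3.50 (SE 0.239, adjusted p = 0.0010 by limma). The study describes the mice as littermates, and the sources used here do not say which libraries form a pair.

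Markers of other cells moved with the genotype. In bulk RNA, a change in the number of cells of a type and a change in RNA per cell cannot be told apart. All 10 stem cell markers were present, of which *Ly6a* rose (log2 fold change 1.13) and *Mecom* fell (-0.55). Of the neutrophil markers, 3 of 6 rose (*Elane*, *Ngp* and *S100a8*), and their summed rescaled FPKM was 41.1 to 78.3 in Znf143 f/f and 116 to 143 in Znf143 -/- libraries. Of 6 monocyte and macrophage markers 1 rose, *Csf1r*, from 0 to 3 fragments per library up to 40 to 63. It passed the filter on low values only through the Znf143 -/- libraries. The sum over the list was 549.6 to 590.0 and 438 to 455, most of it *Lyz2* (533 to 570 and 417 to 431). *Lyz2* had a log2 fold change of -0.38 and was not called. *Cd68* (0.21), *Ly6c2* (1.26), *Fcgr1* (0.71) and *Ccr2* (1.09) had positive log2 fold changes, also without a call. Of 3 T and NK cell markers tested, *Nkg7* rose, and the sum was 123 to 133 and 211 to 265. Most of that sum was *Nkg7* itself (120 to 131 and 206 to 262). *Cd3e* had 0 to 0.0501. *Cd48*, by whose absence the cells were sorted, was read at 9.61 to 11.1 in Znf143 f/f and 19.7 to 20.5 in Znf143 -/- libraries. It was called higher (log2 fold change 0.97, adjusted p = 0.0031 by limma). Of 5 plasmacytoid dendritic cell markers listed, only 1 was tested, *Cox6a2*, with 0 to 34 fragments per library, and it was not called by limma. No erythroid marker was called. The sums were 0.00665 to 1.08 and 0.0773 to 0.611 for the plasmacytoid dendritic cell list, and 41.1 to 88.8 and 40.8 to 47.7 for the erythroid list. The part of these cells in the changes of the sensing genes was not tested.

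Among the RIG-I-like receptors, *Dhx58*, which encodes LGP2, a regulator that binds RNA without signalling by itself, was the one that rose. It lies on chromosome 11 of GRCm38 from 100694884 to 100704271 on the minus strand. Its rescaled FPKM was 10.7, 8.31 and 9.41 in Znf143 f/f and 14.6, 16.4 and 15.4 in Znf143 -/- libraries. All Znf143 -/- libraries lay above all Znf143 f/f libraries. Mean levels were 9.49 ± 1.21 with ZNF143 and 15.5 ± 0.877 without it (SD, n = 3 each), and the log2 fold change was 0.71 (SE 0.115, 95% confidence interval 0.43 to 0.98, adjusted p = 0.0205 by limma). The call was lost when the third Znf143 f/f library (adjusted p = 0.0976 by limma), the second Znf143 -/- library (0.0866) or the third (0.107) was left out. The antisense gene *Dhx58os* shares 141 exonic bases with it and had 23 fragments in the second Znf143 f/f library and 0 in the others, so that reads of the neighbour were few beside the 1333 to 2936 of *Dhx58*.

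*Ddx58* (RIG-I, chromosome 4, 40203773 to 40239828, minus strand) had a rescaled FPKM of 5.95, 4.60 and 5.98 in Znf143 f/f and of 5.71, 5.82 and 5.84 in Znf143 -/- libraries. The second Znf143 f/f library was the lowest of the 6, and the groups overlapped. The log2 fold change was 0.08 with a 95% confidence interval from -0.22 to 0.38 (adjusted p = 0.751 by limma), and without that low library it was -0.04. *Ifih1* (MDA5, chromosome 2, 62595798 to 62646255, minus strand), which binds long double-stranded RNA, had 3.33, 3.79 and 3.96 in Znf143 f/f and 4.35, 3.97 and 4.03 in Znf143 -/- libraries. The groups did not overlap, by a margin of 3.96 to 3.97, and the log2 fold change of 0.16 (interval -0.11 to 0.42) did not pass the test (adjusted p = 0.454 by limma). *Ddx58*, *Ifih1* and *Adar*, whose windows held an ISRE core, were not called. *Dhx58* and *Zbp1*, which rose, had no window, so that the core cannot be compared between members that rose and members not called.

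*Mavs*, the adaptor of both receptors, lies on chromosome 2 from 131234063 to 131248025 on the plus strand. Its rescaled FPKM was 10.6, 10.1 and 9.54 in Znf143 f/f and 7.39, 10.02 and 9.17 in Znf143 -/- libraries. The groups overlapped, and the first Znf143 -/- library was the lowest. The log2 fold change was -0.19 (interval -0.50 to 0.12, adjusted p = 0.420 by limma), and without the first Znf143 -/- library it was -0.07. A fall of *Mavs* by up to 0.50 on the log2 scale lay within this interval.

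**Figure D1:**
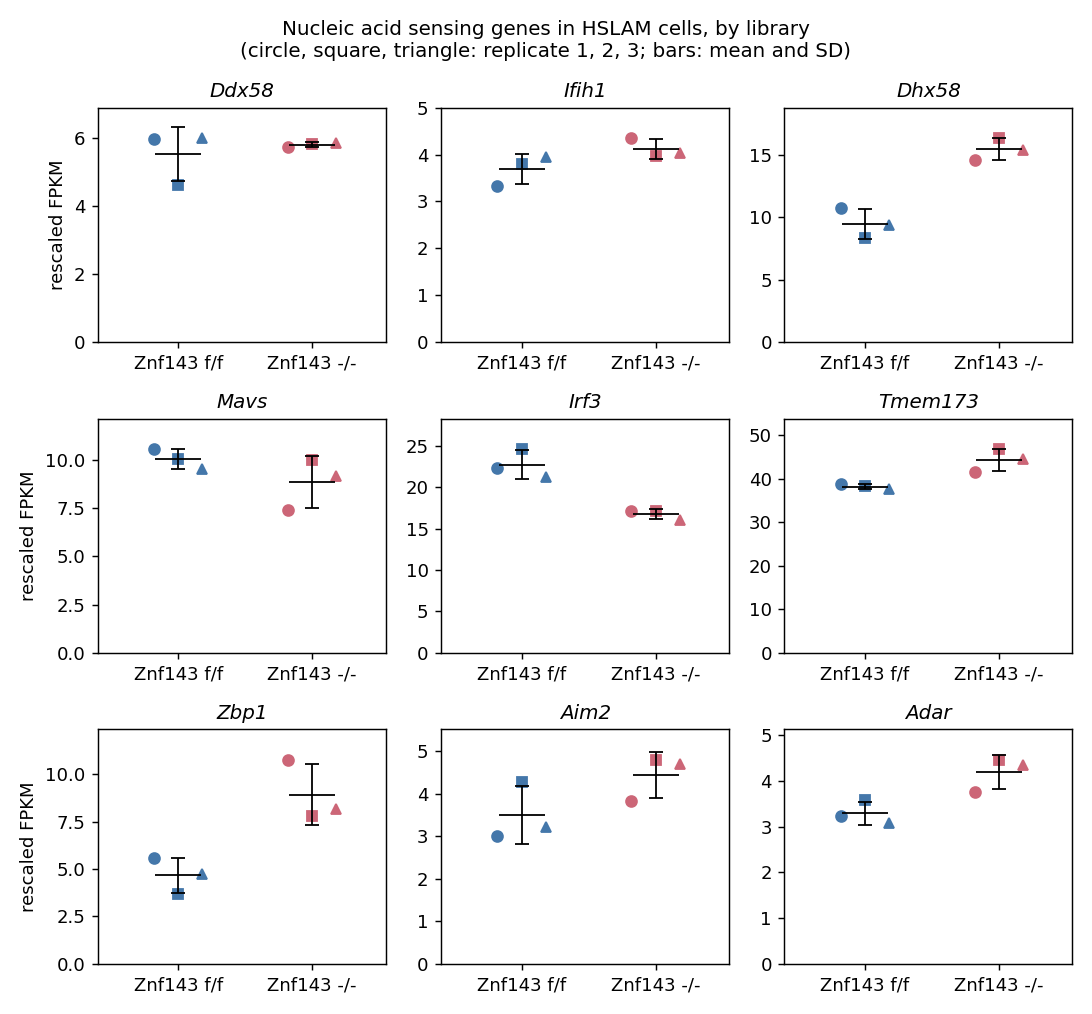
Rescaled FPKM (y axis, from 0, a scale of its own for each gene) of the 9 sensing genes in the 3 Znf143 f/f and 3 Znf143 -/- libraries, with the mean and SD of each genotype. *Dhx58* and *Zbp1*, which were called, and *Ifih1*, *Tmem173* and *Adar*, which were not, lay higher in all Znf143 -/- libraries. *Irf3* lay lower, while *Ddx58*, *Mavs* and *Aim2* overlapped between genotypes.

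*Irf3*, the transcription factor on which the RNA and DNA routes meet, was the member that fell. Its rescaled FPKM was 22.4, 24.6 and 21.3 in Znf143 f/f and 17.1, 17.1 and 16.1 in Znf143 -/- libraries. Each Znf143 -/- library lay below each Znf143 f/f library, and the spread within Znf143 -/- was small. Mean levels were 22.7 ± 1.71 with ZNF143 and 16.8 ± 0.589 without it (SD, n = 3 each), and the log2 fold change was -0.44 (SE 0.0869, interval -0.64 to -0.23, adjusted p = 0.0380 by limma). With the deposited FPKM, the values were 21.0 to 22.3 in Znf143 f/f and 15.9 to 19.3 in Znf143 -/- libraries, the log2 fold change was -0.32, and the call was lost (adjusted p = 0.274 by limma). It was also lost when the first (adjusted p = 0.133 by limma) or the third (0.111) Znf143 f/f library was left out, and likewise for the second (0.122) or the third (0.190) Znf143 -/- library.

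*Bcl2l12*, the divergent neighbour of *Irf3*, encodes a protein related to BCL2 and had higher values in the genotype with the lower *Irf3*. Within Znf143 f/f, the second library was the highest for both genes. Its rescaled FPKM was 16.0, 20.2 and 16.8 in Znf143 f/f and 34.1, 24.6 and 26.8 in Znf143 -/- libraries. All Znf143 -/- libraries were above all Znf143 f/f libraries, with a log2 fold change of 0.68 (SE 0.150, interval 0.32 to 1.04). The adjusted p was 0.0506 by limma, just past the threshold, and as deposited it was 0.0292. *Bcl2l12* is on the direct-target list of the study, which was drawn up in part from these libraries and is not independent evidence. The annotated genes overlap by 1065 bases and share 88 exonic bases of 3442 for *Irf3* and 1976 for *Bcl2l12*. The library kit does not mark strand, so that fragments of the shared bases cannot be assigned to one or the other gene. *Irf3* had 2599 to 4151 and *Bcl2l12* 1214 to 3080 fragments per library. The pair thus differed in opposite directions on either side of the 68 bases shown above, *Irf3* with a call and *Bcl2l12* without one.

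**Figure D2:**
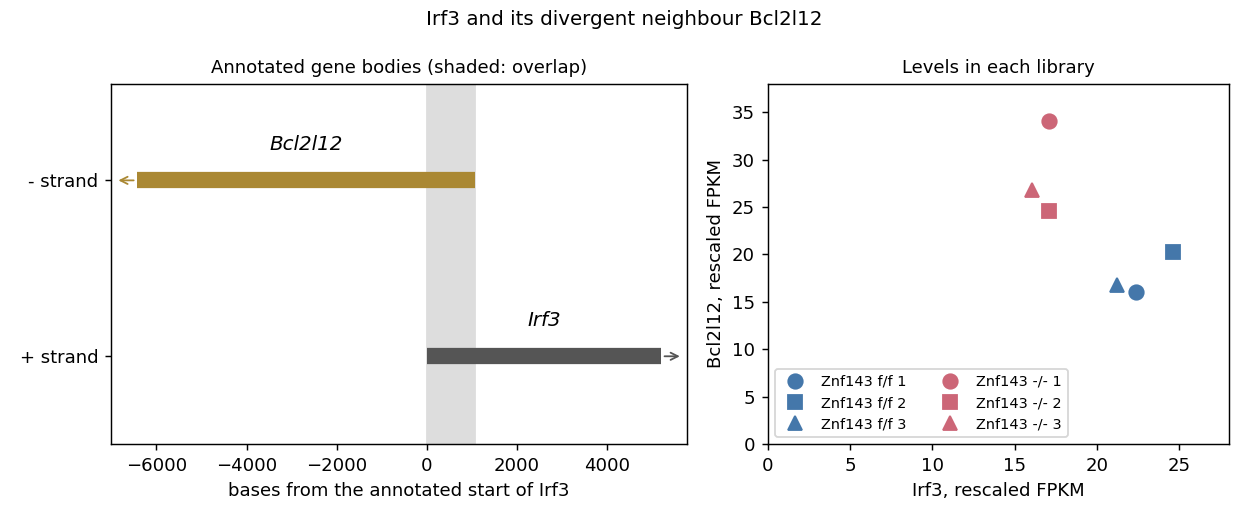
Left, the annotated bodies of *Irf3* and *Bcl2l12* on a scale of bases from the start of *Irf3*, with arrows for the direction of transcription and the overlap of 1065 bases shaded. Right, rescaled FPKM of *Irf3* (x axis) and *Bcl2l12* (y axis) in each library, where the Znf143 -/- libraries lie at lower *Irf3* (16.1 to 17.1) and higher *Bcl2l12* (24.6 to 34.1) than the Znf143 f/f libraries.

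Among the DNA sensors, *Zbp1*, whose protein binds Z-form nucleic acids and engages RIPK3, showed the highest log2 fold change of the 9 genes. It lies on chromosome 2 from 173206612 to 173218923 on the minus strand. The rescaled FPKM was 5.57, 3.70 and 4.73 in Znf143 f/f and 10.7, 7.81 and 8.19 in Znf143 -/- libraries. The groups did not overlap, although the first Znf143 -/- library was well above the other two. Mean levels were 4.67 ± 0.935 with ZNF143 and 8.91 ± 1.60 without it (SD, n = 3 each), and the log2 fold change was 0.92 (SE 0.189, interval 0.47 to 1.37, adjusted p = 0.0407 by limma). When each library was left out in turn, the call was kept only without the second Znf143 f/f library (adjusted p = 0.0468 by limma). It was lost when the first (0.0668) or the third (0.138) Znf143 f/f library was left out, and likewise for the first (0.0540), the second (0.0905) or the third (0.132) Znf143 -/- library. The log2 fold change stayed between 0.77 and 1.06 throughout.

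*Tmem173*, which encodes STING, was the most abundant member per kilobase. Its rescaled FPKM was 38.7, 38.3 and 37.5 in Znf143 f/f and 41.6, 46.8 and 44.4 in Znf143 -/- libraries. The Znf143 -/- libraries all lay above the others, yet the log2 fold change of 0.21 (interval 0.03 to 0.40) had an adjusted p of 0.160 by limma and was not called. *Aim2*, the DNA sensor of an inflammasome, had 3.01, 4.27 and 3.22 in Znf143 f/f and 3.82, 4.79 and 4.69 in Znf143 -/- libraries. Its groups overlapped through the second Znf143 f/f library, and the log2 fold change was 0.34 (interval -0.06 to 0.74, adjusted p = 0.273 by limma). *Cadm3*, which overlaps *Aim2* on the other strand without a shared exonic base, had a rescaled FPKM of at most 0.166 and was not called (adjusted p = 0.263 by limma).

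*Adar*, the enzyme that edits adenosine to inosine in double-stranded RNA, had a rescaled FPKM of 3.22, 3.58 and 3.08 in Znf143 f/f and of 3.77, 4.46 and 4.36 in Znf143 -/- libraries. The groups did not overlap, and the log2 fold change of 0.34 (interval 0.05 to 0.63) did not pass the test (adjusted p = 0.151 by limma). *Chrnb2* shares 1365 exonic bases with *Adar* on the opposite strand, and had 29 to 59 fragments per library beside 1002 to 2057 of *Adar*. It did not pass the test (log2 fold change 0.05, adjusted p = 0.931 by limma). The 1147 exonic bases annotated for *Trex1* all lie within exons of *Atrip*, which encodes a partner of the checkpoint kinase ATR. *Atrip* had a rescaled FPKM of 0.548, 0.524 and 0.413 in Znf143 f/f and of 0.556, 0.364 and 0.481 in Znf143 -/- libraries, with no call (log2 fold change -0.08, adjusted p = 0.873 by limma). No value for *Trex1* can be drawn from it.

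In all, 5 of the 9 genes lay higher and 1 lower in every Znf143 -/- library, and 3 overlapped. Among all genes tested, 30.7% did not overlap, 15.4% higher and 15.3% lower. The exact permutation test of a single gene cannot go below p = 0.1 with 3 libraries against 3. An unadjusted p under 0.05 was reached by 5 of the 9 genes and by 24.2% of all genes tested.

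In Znf143 f/f cells, the level per kilobase spanned 11.6-fold between the means of *Tmem173* (38.2) and *Adar* (3.29). *Irf3* followed at 22.7, and neither overlapped with its neighbour in the order. *Mavs* (10.1) and *Dhx58* (9.49) overlapped with each other, as did *Ddx58* (5.51) with *Zbp1* (4.67), *Zbp1* with *Ifih1* (3.69), *Ifih1* with *Aim2* (3.50) and *Aim2* with *Adar*. *Tmem173* and *Irf3* were thus above each of the 3 receptors in the Znf143 f/f libraries. In the Znf143 -/- libraries, *Irf3* (16.1 to 17.1) and *Dhx58* (14.6 to 16.4) overlapped. The gene length deposited for *Tmem173* was 2302 bases, against 2741 annotated exonic bases. Its level per kilobase and the 11.6-fold span depend on that length.

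**Figure D3:**
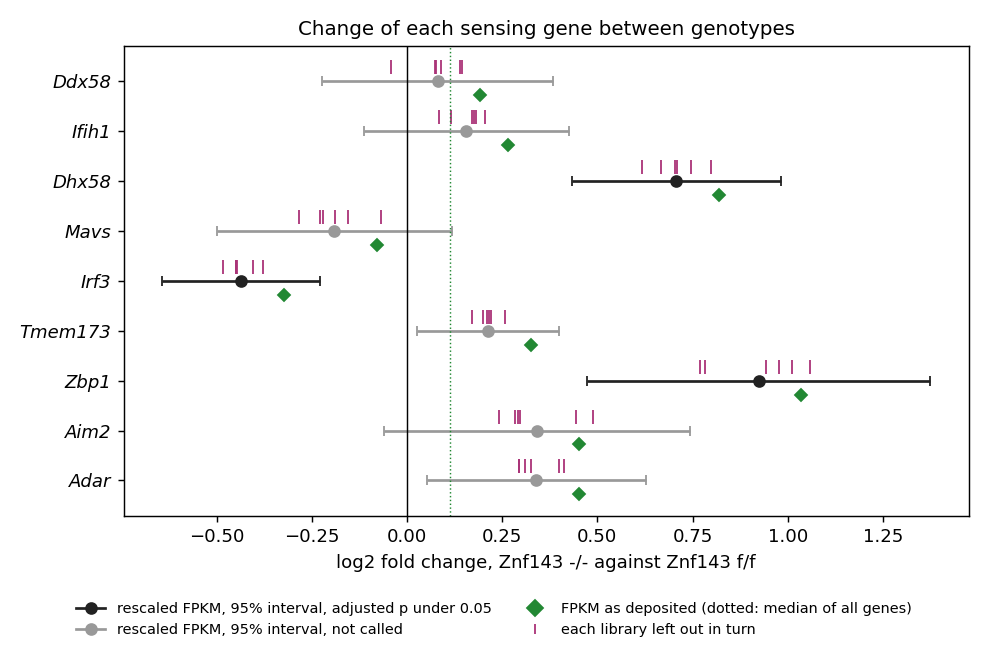
Log2 fold change (x axis, Znf143 -/- against Znf143 f/f) of each sensing gene with its 95% confidence interval from rescaled FPKM, the value from FPKM as deposited, and the values from fits that leave out 1 library each. The deposited values are shifted to the right like the median of all genes (0.11), and *Ddx58* alone crosses 0 when a library is left out.

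The genes around the sensors were taken from 9 lists of pathway genes, with 100 of 110 listed genes tested. Of these, 16 rose, 4 fell and 80 were not called, with a median log2 fold change of 0.17 against 0.0065 for all genes. Of all genes tested, 5.98% were called, 3% higher and 2.99% lower, and the count of each list below may be read beside these shares. Without the third Znf143 -/- library 3 pathway genes rose and 1 fell, and without the second 5 and 2. Leaving out the first Znf143 f/f library gave 7 and 2, and leaving out the third gave 4 and 2. All p-values in this and the next paragraphs are adjusted p-values of limma over all genes.

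Upstream of MAVS, 1 of 10 cofactors and regulators of the RIG-I-like receptors fell and 9 were not called (median log2 fold change 0.05). It was *Zcchc3*, whose protein helps RIG-I, MDA5 and cGAS to bind their ligands, with a rescaled FPKM of 6.60, 2.58 and 6.74 in Znf143 f/f and 0.885, 0.945 and 0.874 in Znf143 -/- libraries. The second Znf143 f/f library was the lowest of its group, yet still above all Znf143 -/- libraries, and the log2 fold change was -2.31 (SE 0.364, adjusted p = 0.0184). *Zcchc3* was called in 10 of 15 alternatives, and not with the replicate number as a block (adjusted p = 0.0662). It is on the direct-target list of the study, which makes the list no independent evidence of its fall.

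Below MAVS and STING, 1 of 17 kinases, adaptors and transcription factors rose, 1 fell and 15 were not called (median 0.10). *Irf7*, which amplifies the interferon response and is itself induced by interferon, had a rescaled FPKM of 7.10, 5.29 and 6.48 in Znf143 f/f and 26.1, 24.6 and 23.3 in Znf143 -/- libraries. It rose by a log2 fold change of 1.96 (SE 0.125, adjusted p = 0.00082), and its call held in all 15 alternatives. *Irf3* and *Irf7*, related factors of the same pathway, thus changed in opposite directions. *Tbkbp1*, which encodes an adaptor of TBK1, fell by 0.66 on the log2 scale (adjusted p = 0.0337), from 4.16, 4.40 and 4.28 to 2.30, 2.86 and 2.87. It was called in 8 of 15 alternatives, and not as deposited (adjusted p = 0.198).

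Of 9 DNA sensing partners tested, 2 rose and 7 were not called (median 0.02). *Mb21d1*, which encodes cGAS, the enzyme that makes the ligand of STING, had 3.59, 3.62 and 3.37 in Znf143 f/f and 5.54, 5.50 and 5.46 in Znf143 -/- libraries. The groups did not overlap, and the log2 fold change was 0.63 (SE 0.0930, adjusted p = 0.0156). It was called in 9 of 15 alternatives, and not as deposited (adjusted p = 0.0514). *Ifi204*, a relative of *Aim2*, rested on 0 to 4 fragments in Znf143 f/f and 30 to 51 in Znf143 -/- libraries (log2 fold change 1.57 on the scale with a pseudocount of 0.1, adjusted p = 0.0337). It passed the filter on low values only through the Znf143 -/- libraries, so that its call is not counted as support, and without it 15 genes of the 9 lists rose.

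Around the AIM2 inflammasome, 2 of 6 effectors rose, 1 fell and 3 were not called (median 0.26). *Pycard*, the adaptor that links AIM2 to caspase-1, had a rescaled FPKM of 25.6, 24.8 and 23.8 in Znf143 f/f and of 13.6, 9.35 and 10.2 in Znf143 -/- libraries, without overlap. Its log2 fold change was -1.17 (SE 0.144, adjusted p = 0.0083), and it is on the direct-target list of the study. *Gsdmd*, which encodes the pore protein cut by caspase-1, rose by 0.46 (adjusted p = 0.0379), and *Il1b*, a cytokine released after it, by 1.04 (adjusted p = 0.0409), a value that rests on 35 to 122 fragments per library. *Gsdmd* was called in 7 of 15 alternatives and *Il1b* in 6 of 14, and neither as deposited (adjusted p = 0.112 and 0.0561).

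Of 10 nucleases and enzymes that clear self nucleic acids, 1 fell and 9 were not called (median -0.02). *Rnaseh2c*, a subunit of RNase H2, which removes RNA from DNA, had 98.5, 162 and 110 in Znf143 f/f and 34.2, 19.2 and 23.8 in Znf143 -/- libraries. The lowest Znf143 f/f library was well above the highest Znf143 -/- library, and the log2 fold change was -2.26 (SE 0.261, adjusted p = 0.0071). The other subunits, *Rnaseh2a* and *Rnaseh2b*, were not called. Of the 100 pathway genes tested, 6 are on the direct-target list of the study, of which *Zcchc3*, *Pycard* and *Rnaseh2c* fell and *Rnaseh2a*, *Itch* and *Azi2* were not called. Of all tested genes matched to that list by symbol, 211 of 1345 were called (15.7%).

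Of 10 effectors that act on double-stranded RNA, 3 rose and 7 were not called (median 0.56). All 3 belong to the oligoadenylate synthetase family, whose products activate RNase L. *Oas2* rose by 1.34 (adjusted p = 0.0337), *Oasl1*, a family member without this activity, by 1.24 (adjusted p = 0.0188) and *Oas1a* by 0.64 (adjusted p = 0.0186) on the log2 scale. *Oas2* was called in 9, *Oasl1* in 10 and *Oas1a* in 11 of 15 alternatives. With the replicate number as a block they were not called (adjusted p = 0.0886, 0.0662 and 0.0878). Members of this family are similar in sequence, so that counts could be split between them. Of 23 other interferon-stimulated genes, 8 rose and none fell (median 0.37), from 0.51 for *Parp9* (adjusted p = 0.0334) to 1.97 for *Ifit3* (adjusted p = 0.0087). The others were *Ifit1*, *Mx2*, *Rtp4*, *Gbp3*, *Usp18* and *Ifi44*. Of 15 alternatives, *Ifit1* was called in 15, *Ifit3* in 14, and *Rtp4* and *Gbp3* in 13 each. *Usp18* was called in 11, *Ifi44* in 10 and *Parp9* in 7 of 15, and *Mx2* in 9 of 14. As deposited, *Parp9* was not called (adjusted p = 0.111) and *Isg15* was (adjusted p = 0.0485).

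No gene was called by limma on the other lists. Among all genes tested, 24.2% had an unadjusted p under 0.05 by limma. Of 6 cell death partners of ZBP1, 3 had an unadjusted p under 0.05, and limma's voom on recovered fragments called 0. The lowest p belonged to *Casp8*, with a log2 fold change of 0.36 (adjusted p = 0.0714), and *Fadd*, with 0.29 (adjusted p = 0.131). Of 9 interferon receptors and signal transducers tested, 5 had an unadjusted p under 0.05, and voom called 1. The lowest p belonged to *Ifnar2*, a subunit of the type I interferon receptor, with 0.31 (adjusted p = 0.0584), and *Ifngr2*, of the type II receptor, with 0.69 (adjusted p = 0.0747). The 7 interferon genes of this list were not analysed here.

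**Figure D4:**
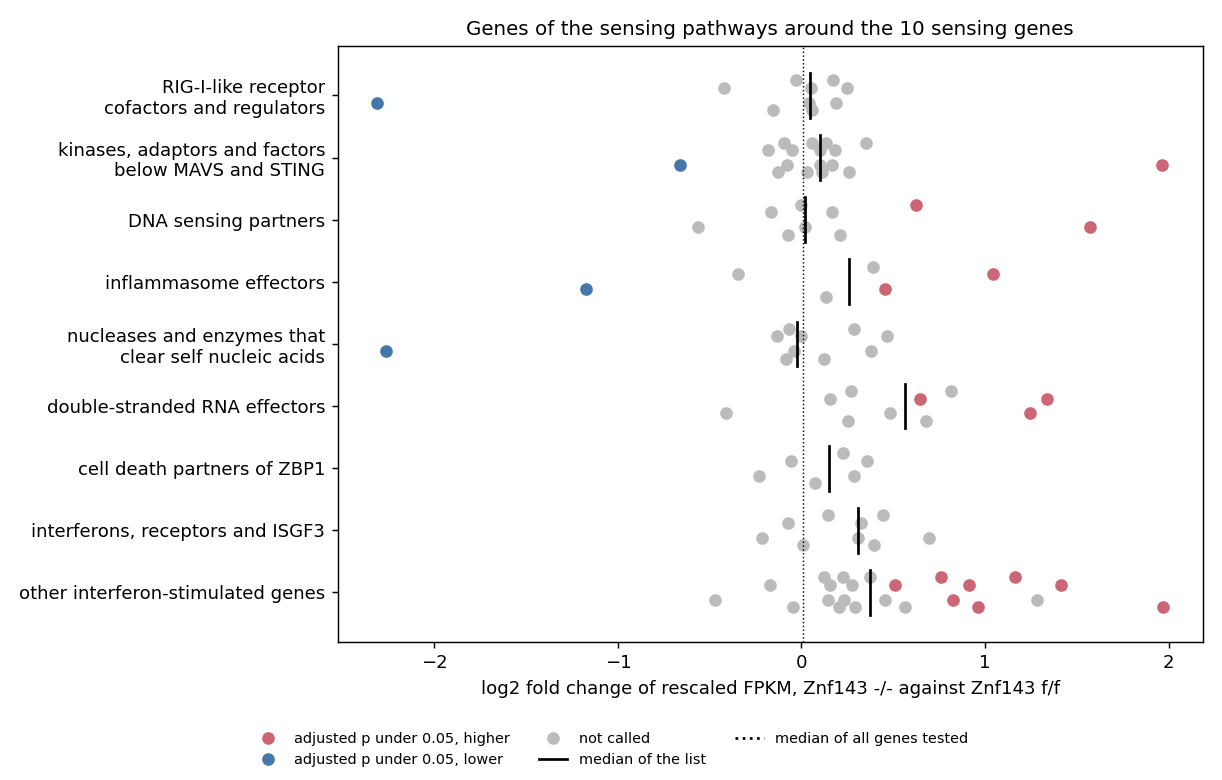
Log2 fold change of rescaled FPKM (x axis) of each tested gene of the 9 pathway lists (rows), with called genes in colour, the median of each list as a bar and the median of all genes tested as a dotted line. The 3 lowest points are *Zcchc3* (-2.31), *Rnaseh2c* (-2.26) and *Pycard* (-1.17), and the highest are *Ifit3* (1.97) and *Irf7* (1.96).

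Of the 20 called pathway genes, 13 had a RefSeq window. The ISRE core stood in those of 6, *Ifit1*, *Ifit3*, *Ifi44*, *Gbp3* and *Oas1a*, which rose, and *Tbkbp1*, which fell. It stood in 8.56% of all windows, a share per window, and *Gbp3* and *Tbkbp1* each had a further window without it. The pathway genes that were not called were not searched in this way, so that the count says nothing on a link between the core and the calls. Of the parts of the long ZNF143 site, ACTACAA (3.24% of all windows) stood in those of 2, *Mb21d1* and *Oasl1*, which rose, and CCCAGNATG (2.04%) in none.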

How the data were processed

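Total RNA of HSLAM cells had been amplified with SMART-Seq v4, made into libraries with Nextera XT, which does not mark strand, and sequenced paired-end. The authors ran TrimGalore, STAR (GRCm38), FeatureCounts and DESeq2. The authors deposited the FPKM of each library for 23116 genes, beside the mean count, fold change, standard error, statistic and p-values of their own comparison, which were not used.

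FPKM times gene length gave whole fragments, within 0.05, for 99.985% of 138696 values. Size factors (median of ratios) were applied to the FPKM. On the log2 scale, with a pseudocount of 0.1, limma 3.58.1 (R 4.3.3, lmFit and eBayes with a variance trend) compared the genotypes for the 19293 genes with a mean of at least 0.1, with Benjamini-Hochberg adjustment and no block. The fit was tested on simulated data. Python 3.11.15 was used for counts and figures.

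The alternatives were the deposited FPKM, division by each library's own total, a pseudocount of 0.01 or of 1, a filter at a mean of 1 or none, voom on recovered fragments, no variance trend, the replicate number as a block, and each library left out. Genes overlapping a member or starting within 1000 bases of its start, called pathway genes and, on lists without a call, the 2 genes with the lowest p were named. Cell type markers were named after their values were seen, and 1 marker list is not reported here. Coordinates and exons are from GENCODE vM21 on GRCm38. The members, lists and motifs were chosen with earlier results of these data known. ChIP-seq and HiC samples were not analysed here.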

Additional observations from a re-analysis of the deposited data

How the results depend on the processing

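The direction of each sensing gene held under all 15 alternatives, except for *Ddx58*, which was not called and ranged from -0.043 to 0.14 on the log2 scale with each library left out. *Dhx58* was called under 11, *Zbp1* and *Irf3* under 8 alternatives each. With each library left out, the log2 fold change was 0.62 to 0.80 for *Dhx58*, 0.77 to 1.06 for *Zbp1* and -0.48 to -0.38 for *Irf3*, the genes called numbered 223 to 2286, and the pathway genes called 3 to 20 higher and 1 to 6 lower, from fewer samples. Without a variance trend the calls of *Zbp1* (0.92, adjusted p = 0.0628 by limma) and *Irf3* (-0.44, adjusted p = 0.0825 by limma) were lost, and as deposited that of *Irf3* (-0.32). The cause was not tested.

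Deviations from the group means correlated at -0.095, -0.088 and 0.036 between libraries of the same number. Between libraries of different numbers they correlated at -0.044 to 0.105. With 3 libraries per genotype, these values cannot show whether the replicate numbers pair littermates. With the replicate block, 191 genes were called in place of 1154, with 3 pathway genes higher and 1 lower, and the log2 fold changes of *Dhx58* (0.71, adjusted p = 0.110 by limma), *Zbp1* (0.92, adjusted p = 0.0589 by limma) and *Irf3* (-0.44, adjusted p = 0.143 by limma) were not called. *Bcl2l12* was called under 6 of 15 alternatives, with an adjusted p of 0.0243 to 0.183 by limma. *Atrip* and *Chrnb2*, which were never called, turned sign, *Atrip* at 0.017 as deposited and -0.19 to 0.060 with libraries left out, *Chrnb2* at -0.031 to 0.13. Each member had 403 fragments or more in a library, whereas depth limits *Ifi204* (0 to 4 fragments in Znf143 f/f libraries) and *Cadm3* (20 to 70).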
